A study of Mus musculus with 4 samples.

Results

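Centrosome genes were taken from maps of m6A (N6-methyladenosine, an adenosine of RNA that carries a methyl group) in epidermal keratinocytes of newborn control mice. Members are the genes with a site in either deposited list that carry the cellular component term centrosome there. Genes also annotated to the kinetochore, to DNA repair or to the cell cycle pathway were left out, as were names beginning with Kif, Dync, Ctnn or Lats. The rule gave 174 of the 6625 genes with a site. It uses the presence of a site, so that the counts and fold values below describe the members and carry no test. The libraries are control m6A IP (n = 2) and control input (n = 2) from epidermis at postnatal day 0. The genotype of all 4 is K14Cre, Mettl14F/+, so the controls themselves carry a Cre driven by the keratin 14 promoter and a floxed Mettl14 allele, and no second genotype was analysed here. In methylated RNA immunoprecipitation sequencing (MeRIP-seq), RNA fragments bound by an m6A antibody (IP) are sequenced beside unselected fragments (input), and a site is called where IP exceeds input. The fold enrichment, the score (a log scale of the p-value that grows as p falls) and the false discovery rate (FDR) of a site are the authors' values. The 2 lists, called list 1 and list 2, are not tied to replicate numbers by the labels and carry no read counts, so depth is unknown and no site has an error of its own. Whether replicates came from separate animals is not stated. The process terms of 26 members were not used here, so that the DNA repair condition could not be applied to them. These include Brca2, which is known for DNA repair.

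The centrosome is the main microtubule-organising centre of animal cells. A pair of centrioles is surrounded by pericentriolar material, which holds the γ-tubulin complexes that start new microtubules, and by small granules called centriolar satellites. The older centriole carries appendages with which it docks at the membrane and becomes the basal body of a cilium, and centrioles are copied once in each cell cycle. In dividing basal keratinocytes centrosomes form the spindle poles, and during keratinocyte differentiation microtubules are known to be reorganised away from the centrosome towards cell junctions.

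Site letters could be read for those member sites that lay inside the 300-base start windows of the RefSeq table (GRCm38.p6). The stretches below are shown because they are the sites themselves, in Cep250 (the stretch common to both lists) and in Cep350 (list 1). A site of Cluap1, an intraflagellar transport gene, was also readable in list 2 (fold 101.57), but it lies at the start of that gene and may hold untranslated sequence, so its letters are not shown. Capitals mark GGAC, the core of the best known m6A consensus.
Cep250 chr2:155975705-155975864, plus strand: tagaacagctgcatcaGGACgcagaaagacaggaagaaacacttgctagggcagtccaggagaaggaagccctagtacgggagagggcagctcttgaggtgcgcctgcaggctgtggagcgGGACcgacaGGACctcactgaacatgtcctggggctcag
Cep350 chr1:155885907-155886106, minus strand: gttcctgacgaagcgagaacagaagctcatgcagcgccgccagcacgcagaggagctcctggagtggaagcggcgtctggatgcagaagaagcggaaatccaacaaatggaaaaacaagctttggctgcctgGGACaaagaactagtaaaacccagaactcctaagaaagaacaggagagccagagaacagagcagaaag
The Cep250 stretch, read on the strand of the gene, held GGAC 3 times over 160 bases, and the other strand held it 2 times. Among the first 160 bases of all 32851 start windows, 43.1% held GGAC on the strand read and 67.8% on either strand. The Cep350 stretch of 200 bases held GGAC 1 time on the strand shown and 0 times on the other. The strand of Cep350 was not in the table, so the minus strand is that of the overlapping predicted gene Gm37383. The corresponding shares of windows at 200 bases were 50.3% and 75.4%. These windows lie at annotated gene starts, while the 2 printed stretches lie far inside Cep250 and Cep350, so the shares are not a matched background. Over all sites that lay inside a window, GGAC was present on either strand in 35 of 76 of list 1 (46.1%) and 40 of 93 of list 2 (43.0%), and it was present in all 4 such member sites, of which 2 are the Cep250 site. Letters that match GGAC are a description and do not show which adenosine was methylated.

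Of the 174 centrosome genes, 105 had a site in list 1 and 139 in list 2, with 172 and 247 sites. Both lists held a site in 70 members (40.2%, 95% Wilson interval 33.2 to 47.7), beside 39.4% of all genes with a site. List 1 alone held 35 members and list 2 alone 69, beside 1580 and 2438 of all 6625 genes with a site. A site that shared at least 1 base between the lists was present in 48 members (27.6%, 21.5 to 34.7), beside 27.2% of all genes. Both shares lay near their background in the full lists, so the reappearance of sites in the other list is not a result about centrosome genes. Shares in reduced lists are in the closing section. A further 22 of the 174 members had sites in both lists at different places, beside 804 of all 6625 genes.

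**Figure D1:**
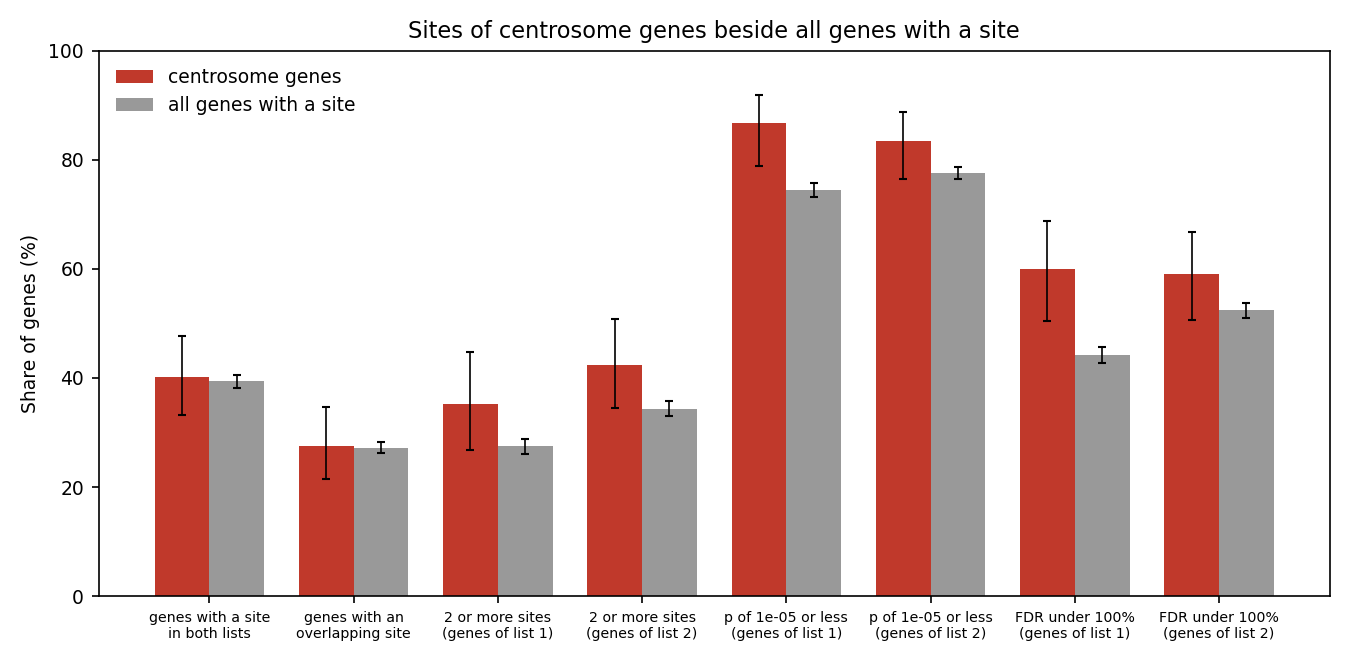
Share of genes (%) for centrosome genes (red) and for all genes with a site (grey), with 95% Wilson intervals that cover counting error only. The shares in both lists lie near each other (40.2% and 39.4%), while sites with a p of 1e-05 or less in list 1 were present in 86.7% of centrosome genes and 74.4% of all genes.

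The centrosome genes lay above the background in the shares with several sites, with a low p and with an FDR below 100%. The margins were mostly small against the counting error. Among members of list 1, 37 of 105 had 2 or more sites (35.2%, interval 26.8 to 44.7), beside 27.4% of all genes of that list. Among members of list 2, 59 of 139 did (42.4%, interval 34.5 to 50.8), beside 34.4%. A site with a p of 1e-05 or less was present in 91 of 105 members of list 1 (86.7%, interval 78.9 to 91.9), beside 74.4%, and in 116 of 139 of list 2 (83.5%, interval 76.4 to 88.7), beside 77.6%. A site with an FDR below 100% was present in 63 of 105 members of list 1 (interval 50.4% to 68.9%), beside 44.2%, and in 82 of 139 of list 2 (59.0%, interval 50.7 to 66.8), beside 52.4%. The interval held the background for 2 or more sites in list 1 and for both p and FDR in list 2, and for 2 or more sites in list 2 it began just above it. The p and FDR shares of list 1 were the ones that stood clear of the background. The median fold enrichment over member sites was 30.9 in list 1 (quartiles 5.39 and 90.2), beside 11.6 over all sites, and 15.3 in list 2 (4.52 and 53.3), beside 11.9. Members spanned a median of 40828 bases in the annotation, against 33992 bases over all genes. The part of gene length and of expression in these differences was not tested. A gene without a site may be unmethylated or too weakly expressed for a call, and these cannot be told apart here. FDR values started at 55.7% in list 1 and at 51.2% in list 2, so no site had a low one.

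The largest number of sites belonged to Akap9, a pericentriolar scaffold that anchors protein kinase A and γ-tubulin complexes at the centrosome and the Golgi. It had 9 sites in list 1 with folds from 25.96 to 660.01 and 7 sites in list 2 with folds from 80.13 to 695.78. The strongest site of list 1 (chr5:4058436-4058476) and that of list 2 (chr5:4038529-4038705) lay in different places, 21748 and 41587 bases before the annotated 3′ end of the gene. Sites of both lists coincided at chr5:4060292-4060495, with a fold of 573.66 in list 1 and 112.77 in list 2. Downstream of it a site beginning at base 4064071 in both lists had 95.24 and 93.23. The third overlap, a site of 846 bases in list 1 within a site of 1625 bases in list 2, had 25.96 and 270.72. The same list 2 site also covered most of a further site of list 1 with a fold of 78.37. The fold at shared places was thus alike at 1 of these and several-fold apart at the others, and the strongest site of each list had no counterpart.

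The γ-tubulin gene Tubg1, whose product starts microtubules, had overlapping sites at both of its places in list 2. Its site at chr11:101122673-101122741 was the same interval in both lists, with folds of 51.86 and 50.63. The site ending at base 101120998 reached 90.32 in list 1, against 47.24 in list 2. Tubg1 spans 6520 bases, so that repeated sites were not confined to long members. Pcnt, which encodes the scaffold pericentrin, had overlapping sites with 217.37 (list 1) and 14.83 (list 2). Cdk5rap2, which encodes an activator of γ-tubulin complexes, had 5.18 and 7.2 at its overlapping site and FDR values of 100% at all 5 of its sites.

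Of the 16 genes listed for the pericentriolar material and microtubule nucleation, sites were called in 9, with 6 shared by the lists (66.7%) and 5 overlapping. Besides Akap9, Tubg1, Pcnt and Cdk5rap2, these were Pde4dip, which encodes the scaffold myomegalin (6.44 and 2.67), and Cep192, a scaffold that recruits this material (10.83 and 2.27, no overlap). Tubgcp2 (4.69, list 1), Tubgcp4 (12.08, list 2) and Cep57 (2.25, list 2) had a site in a single list. Mzt1, Mzt2, Nedd1, Tubg2, Tubgcp3, Tubgcp5 and Tubgcp6 had none, so that 2 of the 5 listed Tubgcp subunits of the γ-tubulin complex carried a site. Tubg1 and Tubg2 are close relatives, and reads that match both could be assigned to either. The share of all annotated genes with a site was not computed for comparison with this or the later role lists.

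The genes of centriole duplication and elongation carried sites in 17 of 27 cases, 8 of these in both lists (47.1%) and 5 overlapping. Mdm1, which encodes a microtubule-binding protein of centrioles that restrains their duplication, had its only site at chr10:118157195-118157370 in both lists, with folds of 1125.27 and 606.23. Cep295, required for a new centriole to become a centrosome, had an overlapping site with 150.05 and 67. Plk4, the kinase that starts centriole duplication, had 25.97 and 22.47 at overlapping sites of 840 and 591 bases, and a further site in list 1 with 61.6. Cenpj, which promotes centriole elongation, had 90.21 and 14.93 over the same interval.

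Other members of that group were uneven between the lists. Cep97, which encodes a partner of Ccp110 in capping the centriole end, had 2 sites in list 1 with folds of 45.36 and 1534.96 and none in list 2. The stronger of them covered 9 bases, at chr16:55919559-55919567. Cep152 and Cep63, whose products recruit Plk4, had folds of 17.72 in list 1 and 265.76 in list 2 (Cep152) and of 198.47 and 33.71 at the strongest sites (Cep63), with no overlap in either gene. Stil (23.91) and Spice1 (47.82) had a site in list 1 alone. Cep120, Cep135, Cep44 and Cetn2 were among the 10 genes of this group without a site.

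Among 21 genes of centriole appendages and the linker between centrosomes, 14 had a site (7 in both lists, 5 with overlap). Of the 14, 9 were members by the rule, with 6 of these in both lists. Cep350, which helps anchor microtubules at centrioles, led this group with 5 sites in list 1 and 6 in list 2. Its overlapping site, starting at chr1:155914716, had a fold of 640.76 over 164 bases in list 1 and 30.72 over 34 bases in list 2. The strongest Cep350 site of list 2 (505.06) had no counterpart in list 1, and neither had the site of list 1 whose letters are given above (170.67) in list 2. Cep250, which encodes the linker protein C-Nap1, reached 14.01 in list 1 and 6.25 in list 2 over the stretch printed above, with an FDR of 100% in each. Lrrc45, a linker component, had 89.13 and 7.11, and Cep19, which acts at the base of the cilium, had 11.06 and 19.95. Ccdc120, Cep83, Cep89 and Crocc, which encodes rootletin, were among the 7 genes without a site.

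**Figure D2:**
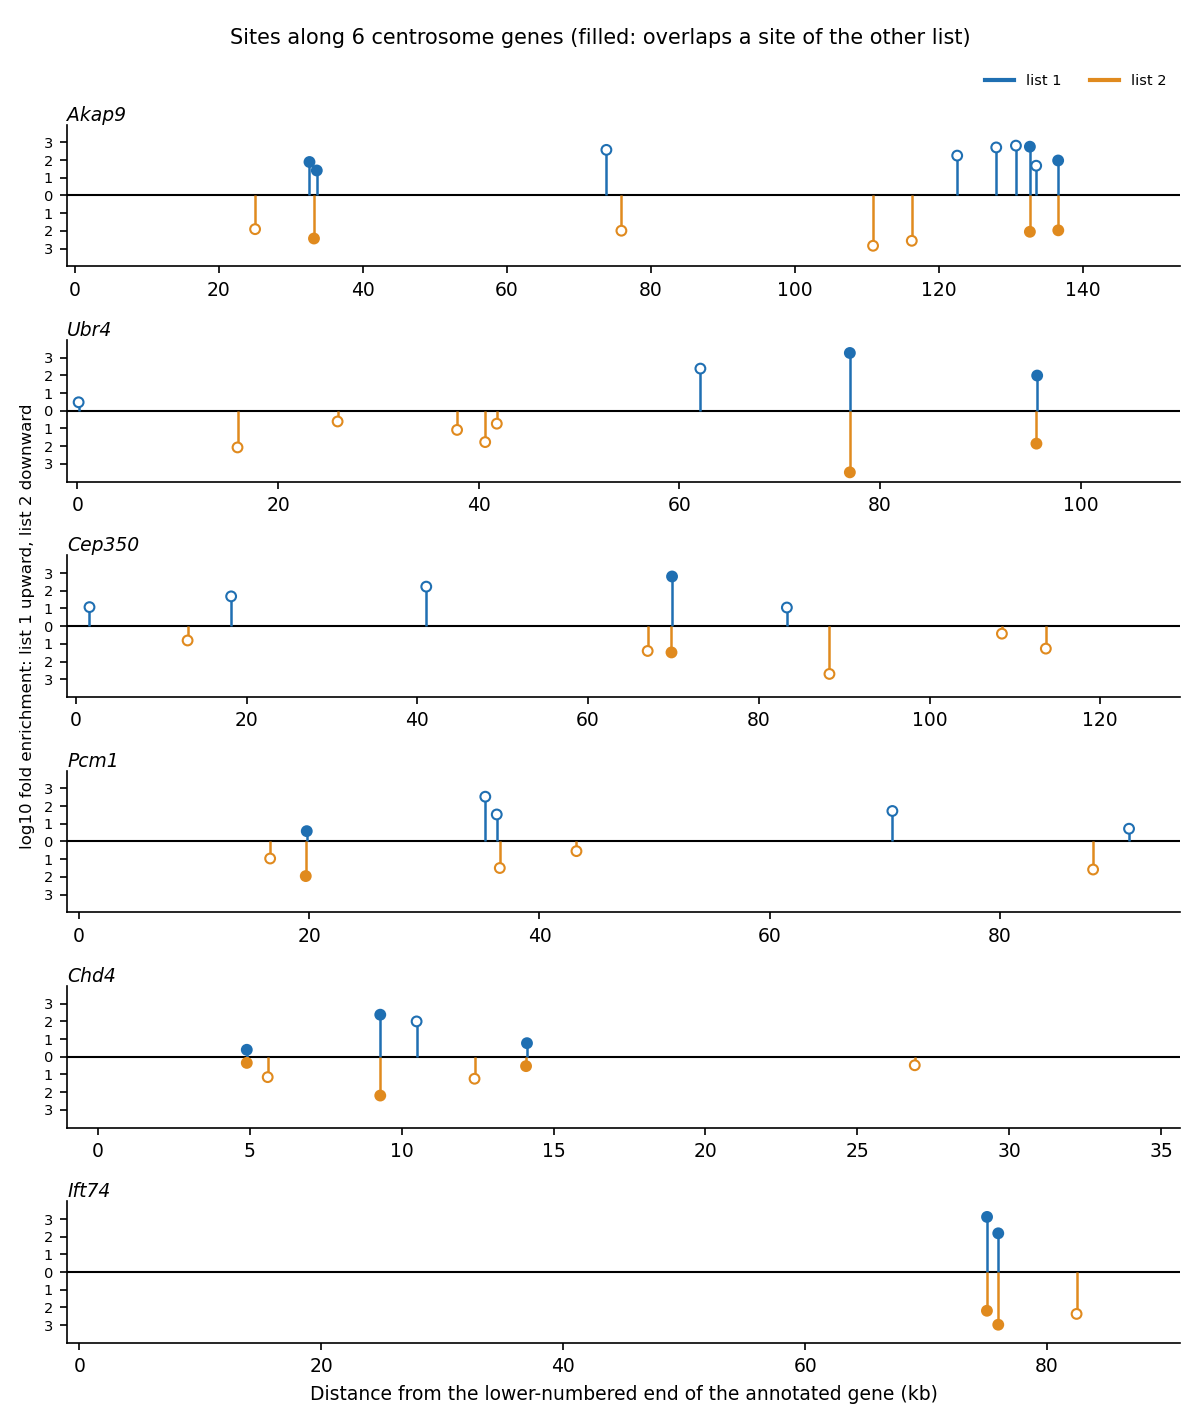
Sites along 6 centrosome genes, by distance in kb from the lower-numbered end of the annotated gene, with log10 fold enrichment upward for list 1 and downward for list 2; filled heads overlap a site of the other list. Akap9 had 9 and 7 sites and Cep350 5 and 6, while the strongest Ubr4 site stood at the same place in both lists with folds of 1864.64 and 3016.25.

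Centriolar satellite genes carried sites in 8 of 17 cases, 3 of these in both lists (37.5%) and 2 overlapping. Of the 8, 6 were members by the rule, with 3 of these in both lists. Pcm1, the scaffold of satellites, had 5 sites in each list. Its strongest site of list 1 (338.92, chr8:41274629-41274931) was absent from list 2, and its overlapping site had 3.82 in list 1 and 90.81 in list 2. Mib1, a satellite-associated ubiquitin ligase known for activating Notch ligands, had 4 sites in list 1 and 2 in list 2, and both list 2 sites overlapped one of list 1. The stronger overlap had 59.04 and 134.08, the weaker 2.13 and 2.19 with an FDR of 100% in each list. Cspp1 (111.25), Ofd1 (93.19) and Hook3 (20.65) had sites in list 2 alone. Bbs4, Ccdc14, Cep126 and Cep290 had none.

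In the group of cilium assembly and transport, 16 of 31 genes carried sites, 6 in both lists (37.5%). By the rule 10 of the 16 were members, and 2 of these 10 were in both lists. Ift74, a subunit of the intraflagellar transport B complex, had 2 overlapping sites less than 1000 bases apart. At the first, which ended at base 94678318 of chromosome 4 in both lists, the fold was 1315.78 in list 1 and 153.72 in list 2. At the second, chr4:94679180-94679277, it was 155.72 in list 1 and 945.65 in list 2. The order of these neighbouring sites was thus opposite in the lists. Rab11fip3, an effector of recycling endosomes, had a weak overlapping site (5.29 and 8.01) and a strong site in each list at different places (201.37 and 134.88). Ahi1, a gene of the ciliary transition zone, had a single site in list 2 with a fold of 756.26. Ift140 had 71.17 in list 1 alone, and Ttc8 (110.19) and Tmem67 (106.84) had sites in list 2 alone. B9d1, B9d2, Bbs1 and Bbs2 had none.

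Mitotic kinase and spindle pole genes carried sites in 17 of 31 cases, 6 in both lists (35.3%), and 11 of the 17 were members. Of these 11 members, 3 were in both lists. Nek1, which encodes a kinase of cilia and mitosis, had 4.78 in list 1 and 154.92 in list 2 over the same interval (chr8:61012093-61012190), the widest gap among member pairs. Numa1, which anchors dynein at spindle poles, had 3 sites in list 1 (14.78 to 140.19) and 2 in list 2 (95.27 and 270.69), and the nearest of them were 87 bases apart without overlap. The augmin subunit gene Haus4 (116.63) had a site in list 1 alone. Ckap5, which encodes a microtubule polymerase, had 5 sites in list 1 and 1 in list 2. Aurka, Cep55, Clasp2 and Haus1 were among the 14 genes without a site.

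**Figure D3:**
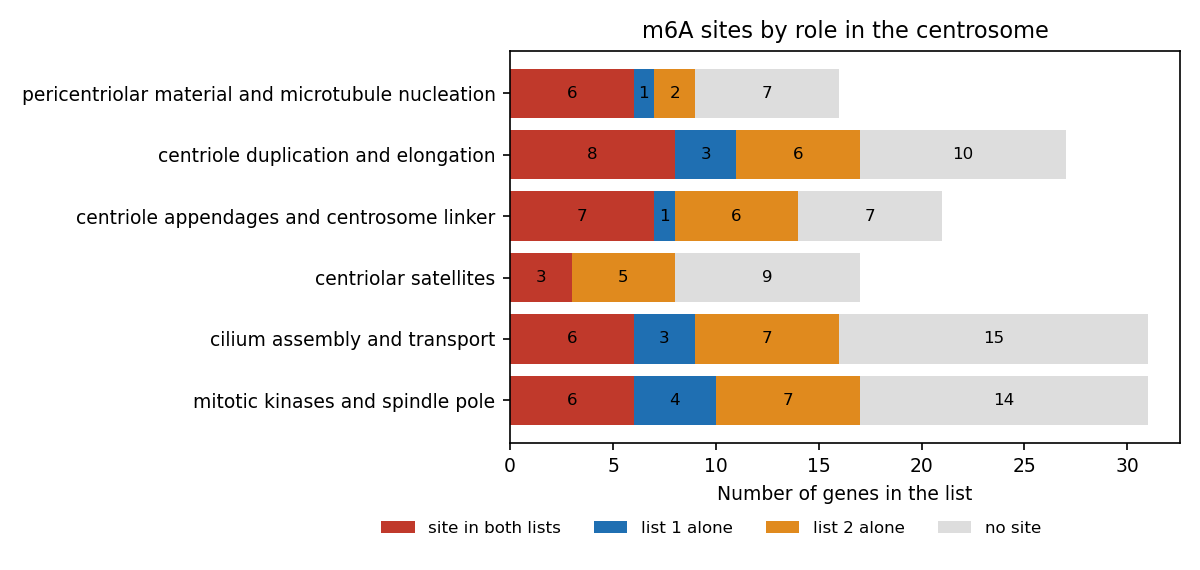
Number of genes in each of 6 role lists by where their sites were called: both lists, list 1 alone, list 2 alone or neither. The pericentriolar list has 6 of 9 genes with a site in both lists, and the satellite list 3 of 8.

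Over the 6 role lists, 81 of 143 genes had a site and 36 of the 81 had it in both lists (44.4%), beside 39.4% of all genes with a site. The lists for the pericentriolar material, centriole duplication and appendages lay above that share, and those for satellites, cilium and mitosis below it. Each of these rests on 8 to 17 genes with a site. How many of all annotated genes carry a site was not computed. The counts of role genes with or without a site thus have no background and are a description only. Of the 81, 62 were members and 19 were not, either because the lists do not annotate them to the centrosome or because the rule leaves them out. The other 112 members belonged to no role list, and many of these are better known from other places in the cell. The term nucleus was held by 80 members (46.0%, beside 37.0% of all genes with a site), centriole by 28, ciliary basal body by 23, spindle pole by 13 and pericentriolar material by 11. The members with the term pericentriolar material were in both lists in 8 of 11 cases and those with centriole in 16 of 28. Those with spindle pole were in 5 of 13, with microtubule cytoskeleton in 4 of 13, with spindle in 2 of 8 and with nucleolus in 4 of 14, where 39.4% of all genes with a site were in both lists. These terms were chosen after their values were seen, and no test of the counts was made.

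Ubr4, which encodes a large ubiquitin ligase, had the highest fold in each list among member sites that overlapped. Its site at chr4:139457532-139457771 had 1864.64 in list 1 and 3016.25 in list 2, and lay 31881 bases before the annotated 3′ end. A second overlap that ended at base 139476349 had 98.5 and 71.82. Of the other sites, 5 in list 2 and 2 in list 1 had no counterpart.

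Several further members with strong overlapping sites act in the ubiquitin system. Fam175b, which encodes a scaffold of a deubiquitinating complex (Abraxas2), had 661.55 in list 1 and 486.11 in list 2 over a shared 11 bases. Rfwd2, which encodes the ubiquitin ligase COP1, had 251.26 and 251.84 at its site ending at base 159327201 of chromosome 1, and 432.59 and 223.37 at chr1:159328602-159328762. Cyld, which encodes a deubiquitinase and tumour suppressor of skin appendages, had 112.08 and 351.97 at its overlapping site. These genes were named for their folds and were not fixed as a group.

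Chd4, the ATPase of the NuRD chromatin remodelling complex, had 3 overlapping sites. The middle of them, chr6:125105176-125105381, had 239.11 in list 1 and 155.86 in list 2, and the others lay between 2.22 and 5.87 in either list. Its relative Chd3 had 4 and 5 sites, with folds from 3.71 to 36.81 in list 1 and from 2.83 to 12.83 in list 2. Kiz, which encodes the spindle pole stabiliser kizuna, had 525.45 and 70.85. Leo1, of the PAF1 transcription elongation complex, had close values of 21.37 and 22.08.

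High folds were also found in members that the other list lacked. In list 1 these were led by D7Ertd443e (2346.28), Cep97 (1534.96), Mtap7d3, which encodes a microtubule-associated protein (253.44), and Zfp322a, which encodes a zinc finger protein (207.99). In list 2 they were led by Ahi1 (756.26), the condensin gene Ncapg (567.58), Camsap2 and Itsn2, which encodes an endocytic scaffold (431.97). Camsap2, whose product protects the minus ends of microtubules away from the centrosome, had 6 sites in list 2 with folds from 5.56 to 496.8 and none in list 1. At the low end stood Tcp1, a chaperonin gene (2.13), and Prkaca, the catalytic subunit gene of protein kinase A (2.27), in list 1, and Usp2 (2) and Dynlrb1 (2.15) in list 2, each with an FDR of 100%. The lowest fold in either list was 2.

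Over the 61 overlapping member pairs, 29 lay within 2-fold of each other (47.5%, interval 35.5 to 59.8), beside 51.9% of all 2200 pairs, and 17 were more than 4-fold apart (27.9%, beside 24.9%). The fold was higher in list 1 in 35 pairs (57.4%, beside 52.2%), and the median log2 difference, list 1 minus list 2, was 0.17 (quartiles -1.01 and 1.16), beside 0.11 over all pairs. Across the member pairs the correlation of log2 fold between lists was 0.716 (Pearson's r) and 0.698 (Spearman's rho), beside 0.564 and 0.537 over all pairs. These values are a description. Whether the lists share a library is not given, and pairs of the same gene are not independent. Close pairs with a fold of 20 or more were those of Rfwd2 (251.26 and 251.84), Akap9 (95.24 and 93.23), Tubg1 (51.86 and 50.63) and Leo1. The widest gaps were 32.4-fold in Nek1, 23.8-fold in Pcm1 and 20.9-fold in Cep350, followed by Dnm2 (138.33 in list 1, 8.62 in list 2). Dnm2 encodes an endocytic GTPase of the dynamin family. The site of lower fold in these pairs was a weak call, with an FDR of 98.5% in Cep350 and of 100% in the others. An FDR below 100% in both lists was held by 26 of the 61 member pairs (42.6%, beside 30.1% of all pairs).

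**Figure D4:**
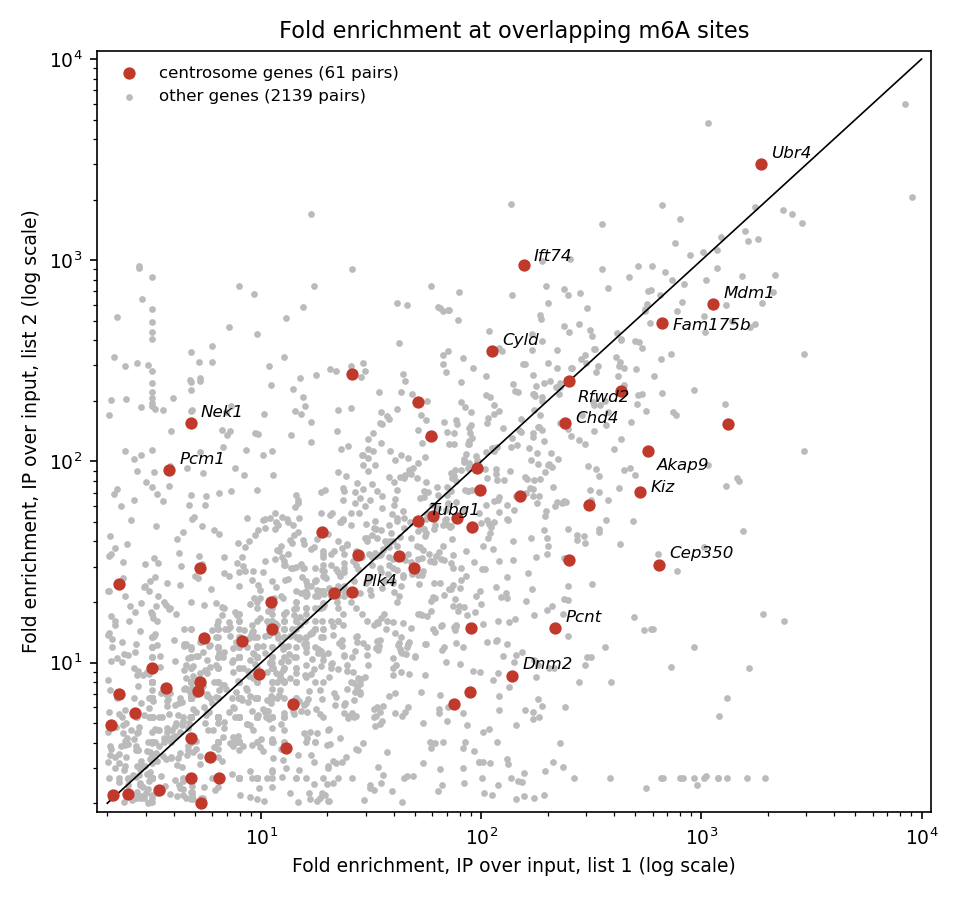
Fold enrichment of IP over input in list 1 and list 2 at overlapping sites, both axes on a log scale, for 61 pairs in centrosome genes (red) and 2139 pairs in other genes (grey); the line marks equal values. Ubr4, Mdm1 and Fam175b lie near the line at high fold, while Nek1 and Pcm1 were higher in list 2 and Cep350, Pcnt and Dnm2 higher in list 1.

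Site edges often agreed to the base. Of the 61 member pairs, 18 had the same start and the same end in both lists (29.5%, beside 32.0% of all pairs), and 52 shared at least 1 of the edges (85.2%, beside 74.3%). The pair of Harbi1, a nuclease-like gene derived from a transposon, began in both lists at base 91712080 of chromosome 2, with folds of 51.57 and 196.53. In the 22 members with sites in both lists but no shared base, the nearest sites were between 87 and 32289 bases apart (median 9007). Lrrcc1, chosen after its values were seen, had the highest folds among these (1308.71 and 464.75), and its nearest sites were 10826 bases apart.

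Member sites lay away from the ends of genes more often than the background, by a measure chosen after the data were seen. Within 1000 bases of either end of the annotated gene lay 18 of 172 member sites of list 1 (10.5%, interval 6.72 to 15.9), beside 20.9% of all sites in annotated genes, and 31 of 247 of list 2 (12.6%, 8.98 to 17.3), beside 18.0%. Sites of the same gene are not independent. With only the highest-fold site per gene, the share was 11 of 105 in list 1 (10.5%), beside 24.9%. In list 2 it was 19 of 139 (13.7%), beside 22.9%. The median distance to the nearer end was 11002 bases for members and 5423 bases for all sites in list 1, and 9298 and 6422 bases in list 2. These distances include introns and grow with gene span, which was longer in members. The part of span in the difference was not tested. A distance from the 3′ end over the whole group is not given, because the strand was held for 137 of 174 members (78.7%), below the 80% set for such a summary.

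Some fold values recur exactly in the lists. In list 1 the most repeated value, 3.19, was held by 9.22% of all sites and by 6 member sites (3.49%), and in list 2 the value 2.67 was held by 7.18% of all sites and by 12 member sites (4.86%). All of these member sites had an FDR of 100%, and 3 members of list 1 and 8 of list 2 had no other site there. At the other end, 57 member sites of list 1 (33.1%, beside 23.1% of all sites) and 53 of list 2 (21.5%, beside 19.4%) had the tied score of 3100.

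Set beside the 56 kinetochore genes with a site, whose products link chromosomes to spindle microtubules, the centrosome genes had the following values. The median fold was 30.9 for centrosome genes and 32.2 for kinetochore genes in list 1, and 15.3 and 18.9 in list 2. A site in both lists was present in 40.2% of centrosome and 46.4% of kinetochore genes, and of overlapping pairs 47.5% of 61 and 21.7% of 23 lay within 2-fold. A site overlapping between the lists was present in 27.6% of centrosome and 14 of 56 kinetochore genes (25%). Kinetochore genes were higher in the shares with 2 or more sites, with a p of 1e-05 or less and with an FDR below 100%. A gene with 2 or more sites made up 35.2% of centrosome genes and 20 of 40 kinetochore genes in list 1, and 42.4% and 54.8% in list 2. A p of 1e-05 or less was reached by 86.7% of centrosome genes and 40 of 40 kinetochore genes in list 1, and by 83.5% and 85.7% in list 2. An FDR below 100% was reached by 63 of 105 centrosome genes and 28 of 40 kinetochore genes in list 1, and by 59.0% and 66.7% in list 2. The excess over all genes was thus present in kinetochore genes too. The difference between the groups was not tested, since both were chosen by having a site.

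The labelled cell type was set against its markers. Of 13 keratinocyte markers 8 had a site, among them Trp63, Itga6 and Dsp in both lists, while Krt14, Krt15, Krt1, Krt10 and Lor had none and Krt5 had a single site in list 1 (5.18). Sites were also called in 6 of 7 fibroblast and 4 of 5 melanocyte markers. The share of all annotated genes with a site was not computed, so these counts do not rank the cell types. FDR values started at 55.7% in list 1 and 51.2% in list 2, so a single call need not show that a transcript was present. Nor does it show how abundant the transcript was. The share of other cells in these centrosome sites was not tested.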

How the data were processed

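The authors deposited mRNA sites as 2 lists without read counts. Sites are named as MACS peaks in the deposited lists, and coordinates follow GRCm38 (submitters' processing notes). The sources used here do not give the MACS version, the aligner, the filters or the libraries behind each list, so depth and the error of a site are unknown. Fold enrichment was deposited as a linear ratio (IP divided by input), the score was deposited as a multiple of the negative log10 of the p-value, and the FDR was deposited as a percent. Site edges and lengths are in bases, per the file headers, with 1 added to each start.

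Genes were taken by the name in the lists. Sites overlapped when they shared at least 1 base in the same gene, and the largest overlaps were taken once each as pairs. All 174 members were found in RefSeq (GRCm38.p6), and 7 have another symbol there. Members and role lists were chosen with earlier results of these data known, and the role lists were written from textbook roles. No test was run, because members were chosen by the calls that give all values; percentages carry 95% Wilson intervals for counting error only, and log2 differences are list 1 minus list 2. Genes named are the 12 members with the highest lower fold at an overlapping site, the 8 with the most sites, up to 3 per role list, the 4 highest per list without a site in the other, the 4 closest and 4 widest pairs, the 2 lowest per list, and up to 4 genes per role list without a site. A gene that this rule names is not reported here. Further members of the role lists, and Harbi1 and Lrrcc1, were named after their values were seen. Alternatives are in the closing section. The motif was searched only in sites inside RefSeq start windows, as no genome was used. Sites on chromosome 18 were left out of that search. Overlap steps were tested on simulated data. Python 3.11.15, pandas 2.3.3, numpy 2.4.6 and scipy 1.17.1 were used.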

Additional observations from a re-analysis of the deposited data

How the results depend on the processing

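Over 15 results and 82 alternatives, 63 values stayed within the interval of the reported one and 19 moved out of it. Staying refers to the member value alone. Centrosome genes in both lists were 40.8% with a p of 1e-05 or less, beside 34.6% of all genes. With equal numbers of sites it was 40.4%, beside 33.1%, and 25.6% had an overlapping site, beside 20.8%. By higher fold 37.1% were in both lists, beside 30.7%. Without the exclusions of the rule it was 38.5%, below 39.4%, and likewise without the 26 members. Each of these intervals held the share of all genes. Keeping the 50% of each list with the higher score put 31.1% of centrosome genes in both lists, beside 28.4% of all genes, and 20.2% had an overlapping site, beside 17.1%. With the 50% of higher fold, 21.0% had an overlapping site, beside 19.4%, and with a reciprocal overlap of 50% it was 21.3% and lay below the share of all genes. The share of list 1 member sites that overlapped was 28.9% among sites of higher fold, 28.4% among sites of higher score, 29.1% with equal numbers of sites per list and 27.3% with reciprocal overlap, beside 29.0%, 26.5%, 25.4% and 30.7% over all genes. In list 2 it was 19.0% with reciprocal overlap, beside 22.5%. Members with 2 or more sites in list 2 made up 30.1% by higher fold and 31.8% by higher score, beside 29.0% and 31.3% of all genes, so the margin over all genes was nearly gone. The median member fold rose by construction when weak sites were left out. In list 1 it was 47.8 with a p of 1e-05 or less, 65.2 by higher fold and 68.2 by higher score, beside 22.3, 44.1 and 43.7 over all sites. In list 2 it was 24.7, 40.7 and 52.3, beside 19.3, 41.4 and 40.8, then 25.2 with equal numbers and 20.7 at the highest fold per gene, beside 21.4 and 14.1. Among sites of higher fold, the list 2 median of members was therefore below that of all sites. Added after the data were seen were the sets without the 26 members whose process terms were not used and without sites at the most repeated fold, the wider rule for the p and FDR shares, and the distance to the nearer gene end itself. Under the first 3 of these no value moved out of the interval. Under the wider rule, which adds the genes left out, more shares had intervals above that of all genes. In list 2 these were the p share (84.8%, 78.6 to 89.5, beside 77.6%) and the FDR share (62.4%, 54.8 to 69.5, beside 52.4%). The shares with 2 or more sites were 37.7% (29.8 to 46.3, beside 27.4%) in list 1 and 44.8% (37.5 to 52.5, beside 34.4%) in list 2. Which shares stood clear thus depended on the exclusions. The motif and the distance from the 3′ end were not run over all members, because no genome was used and strand was held for too few.

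No paired analysis was possible because the lists carry no value per library and are not tied to replicate numbers, and leaving out a replicate was not possible for the same reason. Read depth limits every fold by an unknown amount.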
